A study of Mus musculus with 4 samples.

Results

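The mRNAs of 55 splicing factor and hnRNP genes were examined in the IGF2BP3 eCLIP-seq data of mouse testis. The genes are the protein-coding genes of GENCODE release M21 whose symbols begin with Srsf and a digit, Hnrnp, Sf3a or Sf3b and a digit, U2af or Snrp, and they were taken from 21951 protein-coding genes in all. They comprise 11 SR protein genes, 20 hnRNP genes, 9 genes of SF3 subunits, 3 U2AF genes and 12 genes of Sm and other snRNP proteins. A read cluster was assigned to a gene when its centre lay within the gene on the same strand, which gave 1234 of 337234 clusters in replicate 1 and 998 of 216354 in replicate 2.

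eCLIP-seq maps the RNA bound by a protein after UV crosslinking and immunoprecipitation (IP). Testes of wild-type C57BL/6 mice at 8 weeks of age, with germ cells and somatic cells together, gave 2 libraries from the IP with anti-IGF2BP3 and 2 size-matched inputs (SMInput) made without antibody, 1 of each per replicate. The libraries held 5133438 IP and 8706391 SMInput reads in replicate 1, and 4637612 IP and 16696122 SMInput reads in replicate 2. Every cluster carries the authors' log2(fold change) of IP over SMInput and the −log10(P value) of that comparison, and those with both values at or above 2 were counted as significant peaks.

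SR proteins bind exonic sequences and help to recruit the splicing machinery, whereas many hnRNPs act on exons in the opposite direction and accompany mRNAs to the cytoplasm. U2AF recognises the end of the intron, the SF3 complexes hold the U2 snRNP at the branch point, and Sm proteins form the core of the spliceosomal snRNPs. Many mRNAs of these genes are under control of their own products through alternative exons that lead to decay. IGF2BP3 is a cytoplasmic RNA-binding protein with KH and RRM domains that binds mRNAs, often in the 3′ untranslated region (3′UTR).

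The tissue was checked first. All 30 testis marker genes looked up, from spermatids, spermatocytes, spermatogonia, Sertoli cells, Leydig cells, peritubular cells and macrophages, had clusters in both replicates, and the 2 genes of other organs, Alb and Ins2, had 0. Prm2, a protamine of spermatids, reached 426 SMInput reads in a cluster of replicate 1 and 665 in replicate 2. The macrophage genes Ptprc, Cd68 and Adgre1 stayed at 2 or fewer in clusters with recovered reads. In whole testis, fewer cells of a type and less RNA per cell cannot be told apart.

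All 55 genes had at least 1 cluster in each replicate. Of the clusters in these genes, 66 of 1234 were significant in replicate 1 (5.35%) and 61 of 998 in replicate 2 (6.11%), against 4.92% and 13.2% of all clusters of the tables. The share was therefore near the background in replicate 1 and less than the background in replicate 2. The median log2(fold change) of the clusters was 0.76 and 0.79, against 1.50 and 1.53 over all clusters. Among clusters with recovered reads, those in these genes held more, with a median of 9 IP and 8 SMInput reads in replicate 1 against 4 and 2 over all clusters. In replicate 2 the medians were 10 and 17 reads against 4 and 6. No reads were recovered for 274 clusters of these genes in replicate 1 and 196 in replicate 2. Over all clusters, 35791 of 337234 and 16261 of 216354 were listed at 0 and so had no recovered reads.

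A significant peak was present in 29 of the 55 genes in replicate 1 (52.7%) and in 33 in replicate 2 (60.0%), beside 40.8% and 62.8% of all protein-coding genes with a cluster in that replicate. In both replicates it was 23 genes (41.8%), beside 39.1% of the 12312 genes with clusters in both. Where peaks of both replicates also had to share at least 1 base, 7 of the 55 genes remained (12.7%), beside 16.6% of the same 12312 genes. These 7 genes held 11 shared sites. With both thresholds raised to 3, the counts of peaks were 10 and 9, and 0 shared sites were found. Shares over all clusters and genes were not counted at that setting, so these counts cannot be compared with a background.

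**Figure D1:**
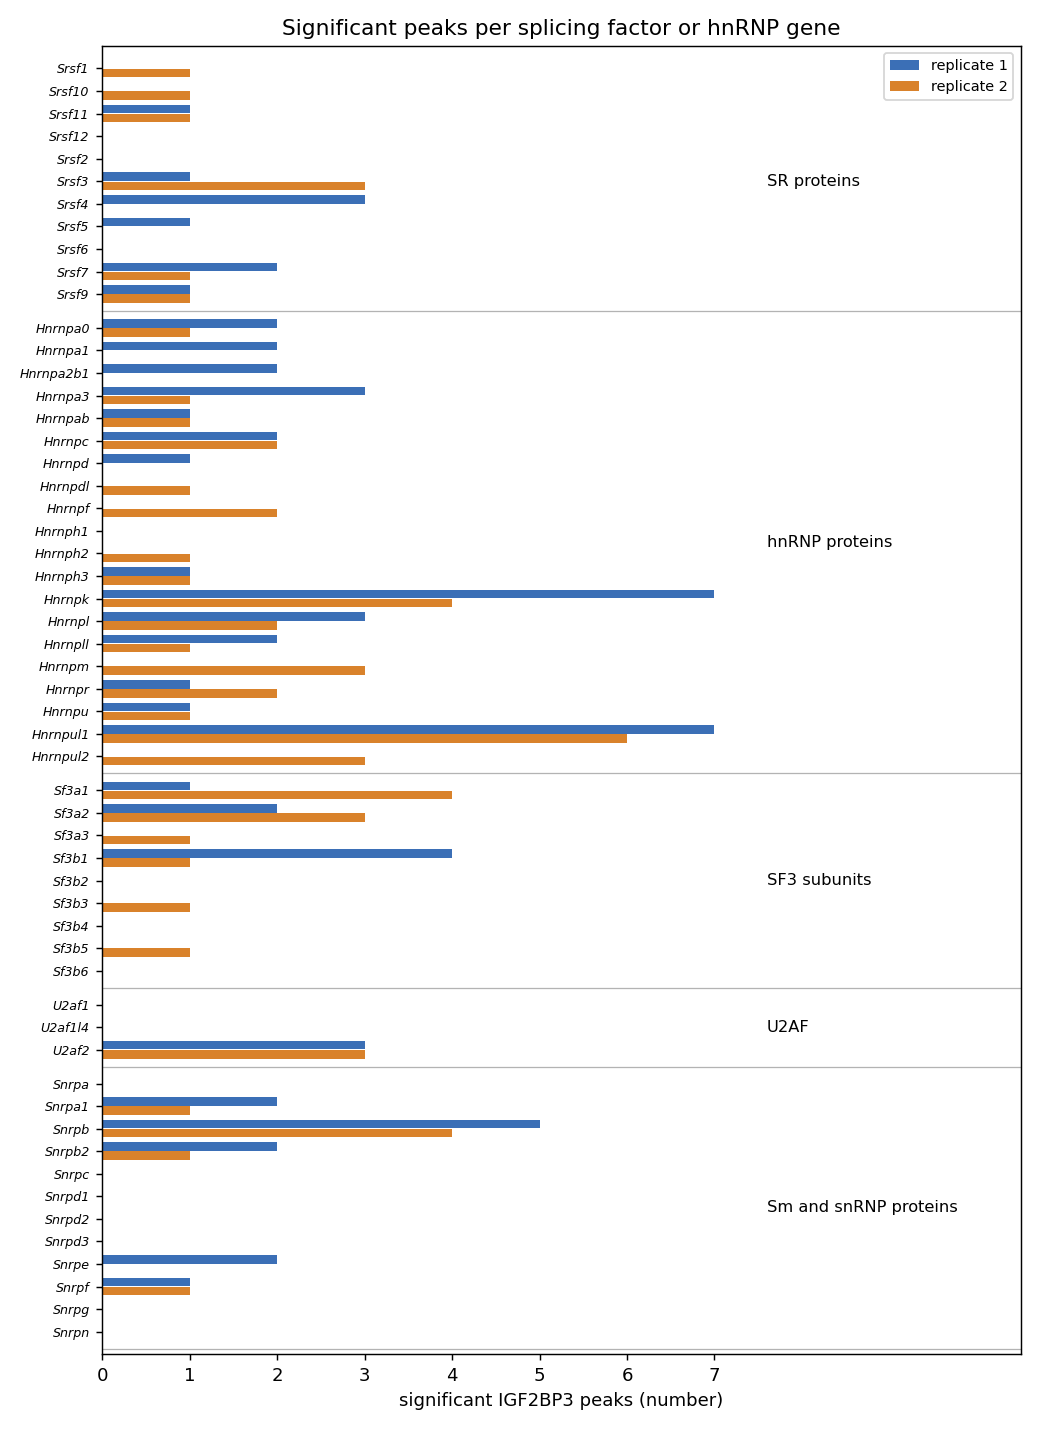
Number of significant peaks (x axis) in each of the 55 genes (y axis), grouped by family, in replicate 1 (blue) and replicate 2 (orange). Hnrnpul1, with 7 and 6 peaks, Hnrnpk, with 7 and 4, and Snrpb, with 5 and 4, carried the highest numbers.

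Over all genes, shared sites were more frequent where a gene had more clusters, so the 55 genes were also read by their number of clusters. With 10 to 29 clusters in both tables together, 2 of 18 genes held a shared site, beside 12.5% of all genes in that range. With 30 to 99 clusters it was 5 of 26 genes, beside 23.9%. None of the 8 genes with fewer clusters and none of the 3 with 100 or more held any, beside 3.19% and 33.7%. The genes with the most clusters were Hnrnpm (65 and 49 in replicates 1 and 2), Sf3b1 (56 and 46), Hnrnpll (51 and 49), Hnrnpc (60 and 38) and, with equal totals, Hnrnpul1 (47 and 45) and Sf3b3 (66 and 26). Of these 6, Hnrnpul1 alone had a shared site. In Hnrnpm, which encodes a binder of GU-rich RNA, there were 0 significant peaks in replicate 1 and 3 in replicate 2, each of them in an intron.

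The significant peaks of these genes lay most often in the 3′UTR. It held 25 of 66 peaks in replicate 1 (37.9%, 95% Wilson interval 27.1 to 49.9) and 35 of 61 in replicate 2 (57.4%, 44.9 to 69.0), and the intervals overlap. Over all protein-coding genes the shares were 43.6% and 37.1%. Coding sequence (CDS) held 20 peaks in replicate 1 (30.3%, 20.6 to 42.2) but 5 in replicate 2 (8.20%, 3.55 to 17.8), beside 28.9% and 20.8% over all genes. Introns held 19 peaks in each replicate, or 28.8% and 31.1%, beside 25.0% and 40.2%, and the 5′UTR held 2 in each. These intervals cover counting error only, and neighbouring peaks of a gene are not independent. With both thresholds at 3, the 3′UTR share was 70.0% of 10 peaks in replicate 1 and 66.7% of 9 peaks in replicate 2. The share over all genes was not counted at that setting.

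Within a region, the clusters of these genes passed the thresholds less often than those of all genes in most cases. Among 3′UTR clusters, 25 of 187 were significant in replicate 1 (13.4%) and 35 of 184 in replicate 2 (19.0%), beside 19.4% and 34.4% over all protein-coding genes. For CDS the shares were 3.64% and 1.11%, beside 5.29% and 7.97%. Intron clusters of replicate 1 were the exception, at 4.35% beside 2.08%.

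Peaks differed by region in whether they overlapped a cluster of the other replicate. Of the 25 3′UTR peaks of replicate 1, 22 overlapped a cluster of replicate 2, beside 61.7% over all protein-coding genes, and the median log2(fold change) there was 2.33, beside 2.59. Of the 35 3′UTR peaks of replicate 2, 21 overlapped a cluster of replicate 1, beside 58.6%, with a median of 2.06 beside 2.18. Of the 20 CDS peaks of replicate 1, 19 overlapped a cluster of replicate 2, beside 69.8%, with a median of 1.27 beside 2.02. All 5 CDS peaks of replicate 2 overlapped a cluster of replicate 1, beside 66.6%. A significant peak of the other replicate was overlapped by 13 of the 25 and 12 of the 35 3′UTR peaks, beside 45.7% and 30.3% over all genes, and by 3 of the 20 and 2 of the 5 CDS peaks, beside 35.5% and 27.2%. None of the 19 intron peaks of replicate 1 overlapped any cluster of replicate 2, and 3 of the 19 intron peaks of replicate 2 overlapped one of replicate 1. Over all genes, 16.2% and 11.1% of intron peaks overlapped a cluster of the other replicate. The intron peaks of these genes had a median of 10 IP reads in replicate 1 and 7 in replicate 2, beside 8 and 5 over all genes, and the 3′UTR peaks had a median of 24 and 17, beside 16 and 12.

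Among the families, the hnRNP genes had the most clusters and the most significant peaks, 35 of 642 clusters in replicate 1 (5.45%, 95% Wilson interval 3.95 to 7.49) and 32 of 540 in replicate 2 (5.93%, 4.23 to 8.25), shares near those of all 55 genes. The Sm and other snRNP genes had the largest share among the families, 12 of 100 clusters (6.999 to 19.8) and 7 of 75 (9.33%, 4.60 to 18.0), with intervals that overlap those of the hnRNP genes. Over all clusters the shares were 4.92% and 13.2%, within the intervals of this family in replicate 2 only. The hnRNP genes, with the most clusters, held 8 of the 11 shared sites. A shared site was present in 4 of 20 hnRNP genes, 2 of 12 Sm and other snRNP genes, 1 of 9 SF3 genes, 0 of 11 SR protein genes and 0 of 3 U2AF genes, beside 16.6% of all genes with clusters in both replicates. Those of the hnRNP genes lay in Hnrnpul1, Hnrnpk, Hnrnpl and Hnrnph3. Of the 20 hnRNP genes, 14 and 16 had a peak in replicates 1 and 2 and 11 had one in both, beside 40.8%, 62.8% and 39.1% of all genes, and Hnrnph1 had none in either.

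Hnrnpul1, which encodes a nuclear protein related to hnRNP U, held 3 shared sites, all in the 3′UTR of 1082 bases in its last exon on the minus strand (chr7:25721165-25722246, mm10). The site farthest from the stop codon, chr7:25721546-25721575, had a log2(fold change) of 2.999 in replicate 1 (33 IP and 7 SMInput reads, exact Clopper-Pearson 95% interval 1.80 to 4.42) and 3.39 in replicate 2 (35 and 12 reads, 2.41 to 4.47). Its smaller value over the replicates was the largest among the 11 sites.

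The next site upstream, chr7:25721621-25721759, held the strongest P values among the peaks of the 55 genes. Its most significant peak had a log2(fold change) of 3.76 in replicate 1 (144 and 18 reads, 3.05 to 4.56, −log10(P value) 41.2) and 2.78 in replicate 2 (200 and 105 reads, 2.43 to 3.13, −log10(P value) 75.6). These peaks overlapped only at their ends, and the replicate 2 peak that covered most of the first had 2.98. The third site, chr7:25721895-25721989, had 2.06 (1.58 to 2.57) and 2.58 (2.12 to 3.05). Between the second and the third site lay a cluster just under the threshold in both replicates, with 1.76 (72 and 36 reads) and 1.98 (56 and 51 reads). Enrichment in the Hnrnpul1 3′UTR thus extended over neighbouring clusters in both replicates.

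Hnrnpk encodes a KH domain protein that binds C-rich RNA, and it also held 3 shared sites in its 3′UTR of 1301 bases (chr13:58391142-58392442, minus strand). The site nearest the stop codon, chr13:58392024-58392105, had a log2(fold change) of 2.21 (41 and 15 reads, 1.33 to 3.17) in replicate 1 and 2.64 (26 and 15 reads, 1.67 to 3.66) in replicate 2. The middle site, chr13:58391730-58391810, had 2.084 (1.08 to 3.18) and 2.0996 (1.20 to 3.01). The site nearest the end, chr13:58391279-58391363, had 3.29 (23 and 4 reads, 1.74 to 5.28) and 2.59 (15 and 9 reads, 1.30 to 3.96). These 2 peaks overlapped only at their ends, and the replicate 1 peak that covered most of the replicate 2 one had 3.85 (17 and 2 reads, 1.77 to 7.01). For each Hnrnpk site the intervals of the replicates overlap. Between the first and the middle site lay clusters under the threshold, with a log2(fold change) of 0.13 (20 and 31 reads) in replicate 1 and of 0.94 (17 and 32 reads) and 0.96 (28 and 52 reads) in replicate 2.

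Hnrnpl encodes a protein that binds CA repeats. Its shared site, chr7:28822089-28822209 on the plus strand, lay in a 3′UTR of 360 bases. The most significant peak had a log2(fold change) of 2.86 in replicate 1 (103 and 24 reads, 2.21 to 3.57) and 2.92 in replicate 2 (82 and 39 reads, 2.35 to 3.51). The cluster directly upstream had more reads in both libraries, 164 IP and 170 SMInput reads in replicate 1 and 273 and 456 in replicate 2, but a log2(fold change) of 0.71 and 1.11. The significant peaks of Hnrnpl were therefore not at the stretch with the most reads. That stretch passed the limit on P (−log10(P value) 5.14 and 23.9) but not the limit on fold change. The most significant peaks overlapped only at their ends. The replicate 2 peak that covered most of the first, also the widest of the site, had 2.22 (97 and 75 reads, 1.77 to 2.67) in place of 2.92, and the replicate 1 peak at the place of the second had 3.12 (82 and 16 reads, 2.34 to 3.99).

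**Figure D2:**
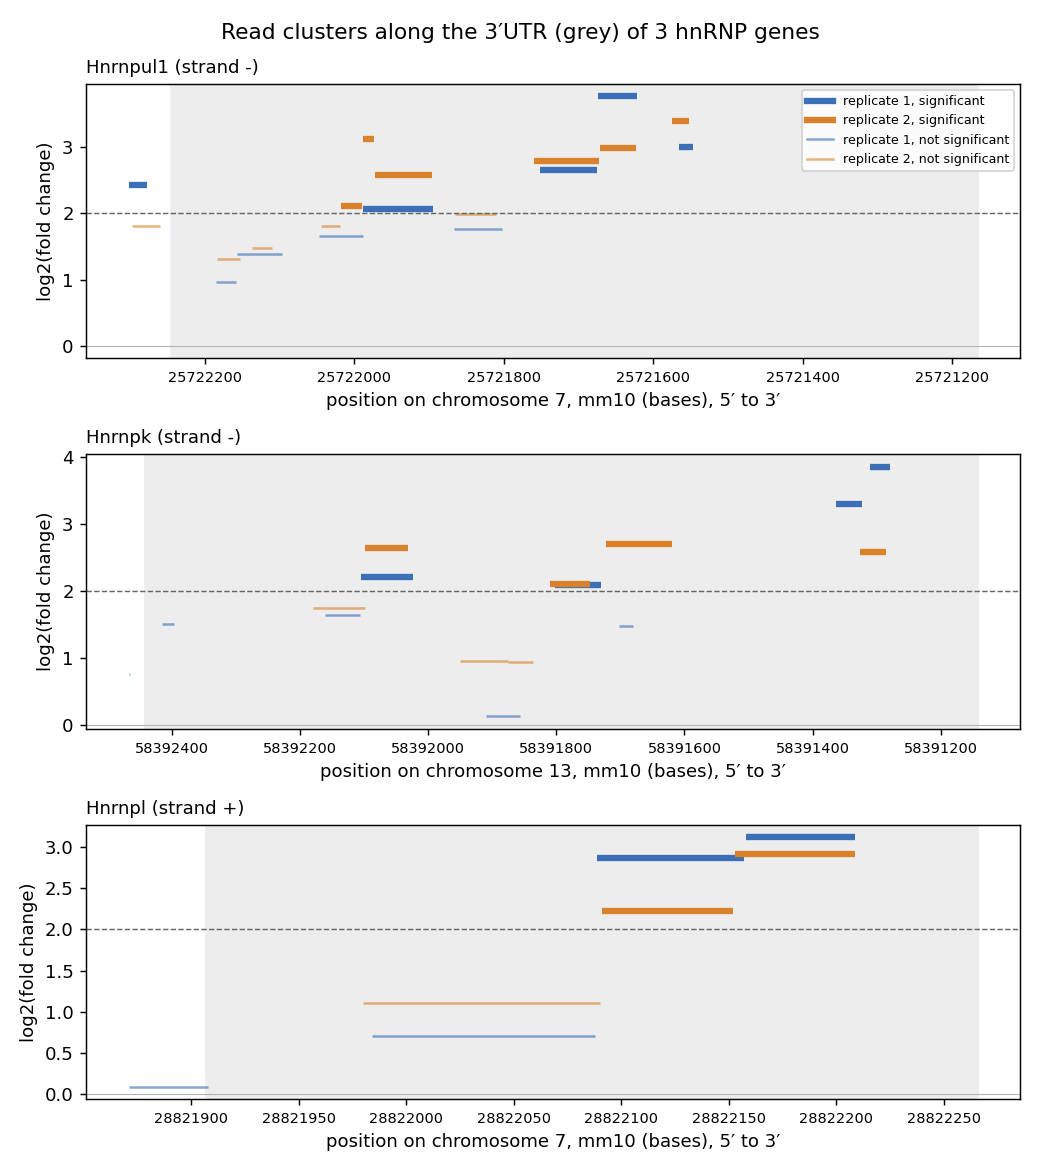
Read clusters along the 3′UTR (grey) of Hnrnpul1, Hnrnpk and Hnrnpl, drawn 5′ to 3′ by position on the chromosome (x axis, bases, mm10) and log2(fold change) (y axis), with replicate 1 in blue, replicate 2 in orange, significant peaks as thick lines and the threshold of 2 dashed. In Hnrnpl, the significant peaks of both replicates begin next to a cluster with values of 0.71 and 1.11.

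Hnrnph3, a gene of the hnRNP H and F group that binds G-rich RNA, had its shared site in CDS, in exon 10 of 10 (chr10:63015671-63015719, minus strand), with 2.47 (36 and 11 reads, 1.47 to 3.60) and 2.26 (24 and 18 reads, 1.32 to 3.23). Its relative Hnrnph1 had 24 clusters in replicate 1 and 29 in replicate 2 without a significant peak. Clusters without enrichment have no recovered reads and are left out of the read maxima. Among the others, the Hnrnph1 cluster with the most SMInput reads lay at different places in the replicates. In replicate 1 it was in CDS, with 30 IP and 50 SMInput reads and a log2(fold change) of 0.03, and in replicate 2 in an intron, with 18 and 61 reads and 0.09.

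The remaining 16 hnRNP genes had 0 to 3 peaks in a replicate, and some of these rested on many reads but overlapped no significant peak of the other replicate. Hnrnpa2b1 encodes an abundant hnRNP with RRM domains, and in replicate 1 it had adjoining peaks with log2(fold change) values of 2.49 (73 and 22 reads, centre in CDS) and 2.48 (46 and 14 reads, centre in the 3′UTR). The overlapping clusters of replicate 2 had 1.27 and 1.52. Hnrnpu, which encodes a large nuclear scaffold protein, had a 3′UTR peak of 2.14 in replicate 2 (49 and 40 reads), and a cluster of replicate 1 that covered part of it had 0.80.

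SR protein genes had 9 peaks in 208 clusters in replicate 1 (4.33%) and 8 in 186 in replicate 2 (4.30%), beside 4.92% and 13.2% of all clusters, and 0 shared sites. Of the 11 genes, 6 had a peak in each replicate, beside 40.8% and 62.8% of all genes, and 4 had one in both, beside 39.1%, namely Srsf3, Srsf7, Srsf9 and Srsf11. The peaks of replicate 1 lay in introns (6), in the 5′UTR (2) and in the 3′UTR (1), and those of replicate 2 in the 3′UTR (4) and in introns (4). No SR protein gene had a significant peak in CDS.

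Srsf3, which encodes the smallest SR protein, had 3′UTR peaks in replicate 2 with a log2(fold change) of 3.23 (13 and 5 reads, 1.65 to 5.07) and 3.26 (8 and 3 reads, 1.20 to 5.81). Neither overlapped a cluster of replicate 1. Srsf7 had adjoining 5′UTR peaks in replicate 1, of 2.53 (17 and 5 reads) and 2.24 (25 and 9 reads), and the overlapping clusters of replicate 2 had 1.63 and 1.26. Srsf1, a regulator of many alternative exons, had a single peak, in the 3′UTR in replicate 2, of 2.61 (17 and 10 reads).

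Among the clusters of SR protein genes with recovered reads, those of Srsf1, Srsf5, Srsf6 and Srsf2 had the most SMInput reads in replicate 1, with 68, 67, 63 and 60 reads. Clusters without enrichment have no recovered reads and are left out of all read maxima here. Srsf1 and Srsf5 each had 1 significant peak, in a single replicate, and Srsf2 and Srsf6 had none. Srsf2, which binds exonic enhancers, had 9 clusters in each replicate, and the clusters with the most SMInput reads overlapped in the 3′UTR, with 46 IP and 60 SMInput reads in replicate 1 (log2(fold change) 0.38) and 49 and 126 in replicate 2 (0.49). Srsf6 had 10 clusters in each, and its deepest lay at different places in the 3′UTR, with 47 and 63 reads (0.34) in replicate 1 and 32 and 92 reads (0.32) in replicate 2. The highest values of these genes came from clusters with fewer reads and stayed below the threshold of 2. They were 1.25 (21 and 15 reads) and 1.85 (15 and 15 reads) for Srsf2, and 1.11 (14 and 11 reads) and 1.60 (27 and 32 reads) for Srsf6. Srsf12 also had none, but its 3 and 2 clusters reached at most 2 SMInput reads, so that enrichment of this mRNA was hardly measurable.

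Alternative exons that trigger nonsense-mediated decay, and retained introns, are well known in SR protein genes. Of the clusters in SR protein genes, 40 of 208 in replicate 1 and 35 of 186 in replicate 2 had their centre in an exon of a transcript annotated as nonsense-mediated decay or retained intron and outside the exons of protein-coding transcripts. How many clusters of all protein-coding genes lay in such exons was not counted, so the cluster counts have no background beside them. Of the significant peaks of SR protein genes, 4 of 9 and 1 of 8 lay in such exons. For all 55 genes it was 6 of 66 peaks, 2 of the first kind and 4 of the second, in replicate 1, and 0 and 2 of 61 in replicate 2. Over all protein-coding genes the shares of peaks were 0.562% and 1.17% in replicate 1 and 0.472% and 1.36% in replicate 2. Among all clusters of the 55 genes, 9 and 85 of 1234 lay in such exons in replicate 1. In replicate 2 it was 10 and 60 of 998 clusters. For retained introns this was 6.89% of clusters beside 6.06% of peaks in replicate 1, and 6.01% beside 3.28% in replicate 2. Peaks of the 55 genes were thus not more frequent in retained introns than their clusters. For the decay kind it was 0.729% of clusters beside 3.03% of peaks in replicate 1, on 2 peaks. These peaks lay in Srsf4, with 12 IP and 5 SMInput reads, and in Srsf9, with 11 and 3. Neither overlapped a cluster of replicate 2.

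Genes of SF3 subunits had 7 peaks in 229 clusters in replicate 1 (3.06%) and 11 in 163 in replicate 2 (6.75%), both under the 4.92% and 13.2% of all clusters. Of the 9 genes, 3 had a peak in both, Sf3a1, Sf3a2 and Sf3b1, beside 39.1% of all genes. The shared site lay in Sf3a2, which encodes a subunit of the U2 snRNP. It was in CDS, in exon 9 of 9 (chr10:80804613-80804858, plus strand), with a log2(fold change) of 2.67 in replicate 1 (45 and 12 reads, 1.73 to 3.72) and 2.16 in replicate 2 (57 and 46 reads, 1.57 to 2.75). The interval of each replicate includes values under 2, as it does at each Hnrnpk site and at the sites of Hnrnph3, Snrpb and Snrpa1.

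Sf3a1, another U2 snRNP subunit, had 4 peaks in its 3′UTR in replicate 2, from 2.14 to 3.85, and 1 in replicate 1, of 3.93 on 9 IP reads and 1 SMInput read, at another place. Sf3b1, whose product contacts the branch point, had 3′UTR peaks of 2.35 (18 and 6 reads) and 2.50 (10 and 3 reads) in replicate 1, and the overlapping clusters of replicate 2 had 1.14 and 1.41. Sf3b2, Sf3b4 and Sf3b6 had no peak in either replicate. In Sf3b2, the cluster with the most recovered SMInput reads was in the 3′UTR in replicate 1, with 30 IP and 27 SMInput reads (0.91). In replicate 2 it was another one, in CDS, with 24 and 71 reads (0.28). In Sf3b4 these clusters overlapped in CDS, with 21 and 22 reads (0.70) and 18 and 37 (0.81).

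Among the U2AF genes, only U2af2, which encodes the large subunit that binds the polypyrimidine tract, had significant peaks, 3 in each replicate, out of 55 and 34 clusters in the family (5.45% and 8.82%, beside 4.92% and 13.2% of all clusters). This was 1 of 3 genes, beside 40.8% and 62.8% of all genes. All 6 lay in introns, at different positions in the replicates, and 5 of them overlapped no cluster of the other replicate. The highest, 4.66 in replicate 2, rested on 7 IP reads and 1 SMInput read (1.69 to 10.1). U2af1, for the small subunit that reads the end of the intron, and its relative U2af1l4 had 0 peaks.

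The 12 and 7 peaks of the genes of Sm and other snRNP proteins lay in 5 and 4 of 12 genes, beside 40.8% and 62.8% of all genes. Snrpb encodes the Sm protein B and had the most, 5 and 4. Its shared site, chr2:130171789-130171943 on the minus strand, lay in the 3′UTR in exon 7 of 7 and had a log2(fold change) of 2.72 in replicate 1 (35 and 9 reads, 1.64 to 3.96) and 2.60 in replicate 2 (27 and 16 reads, 1.66 to 3.59). These peaks overlapped only at their ends, and another replicate 1 peak, of 2.76 (24 and 6 reads, 1.43 to 4.34), lay within the replicate 2 one. Snrpa1, for a protein of the U2 snRNP, had a 3′UTR site at chr7:66074407-66074506, plus strand, of 2.93 (9 and 2 reads, 0.66 to 6.18) and 2.43 (6 and 4 reads, 0.36 to 4.70). This site rested on the fewest reads among the 11.

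Snrpb2, for another U2 snRNP protein, had 3′UTR peaks at neighbouring positions, of 2.69 in replicate 1 (19 and 5 reads) and 2.26 in replicate 2 (8 and 6 reads), that did not overlap. Snrpe, for an Sm core protein, had 2 CDS peaks in replicate 1, of 3.46 and 2.03, where the overlapping clusters of replicate 2 had 0.97 and 0.26. In 7 of the 12 genes, Snrpa, Snrpc, Snrpd1, Snrpd2, Snrpd3, Snrpg and Snrpn, no peak was found in either replicate. The share of all genes without a peak in either replicate was not counted, so this count has no background beside it. Where reads were recovered, the clusters of these 7 genes reached at most 22 SMInput reads in replicate 1 and 35 in replicate 2. In replicate 1, 10 of the Snrpn clusters also lie in overlapping genes, among them Snurf.

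**Figure D3:**
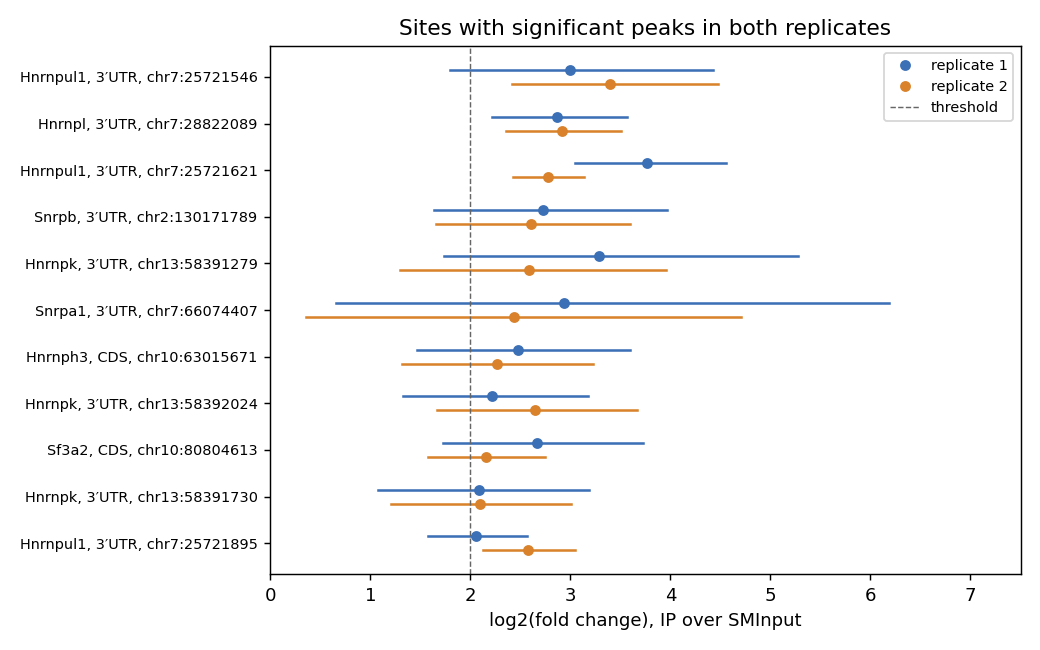
log2(fold change) of IP over SMInput (x axis) at the 11 sites with overlapping significant peaks in both replicates (y axis, gene, region and start), for the most significant peak of the site in replicate 1 (blue) and replicate 2 (orange), with exact 95% counting intervals as lines and the threshold of 2 dashed. Values ranged from 2.06 to 3.76, and the intervals of Snrpa1, with 9 and 6 IP reads, were the widest.

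Of the 11 shared sites, 9 lay in the 3′UTR and 2 in CDS, and 0 in introns. Over all protein-coding genes, 63.8% of 3854 shared sites lay in the 3′UTR, 28.4% in CDS and 5.22% in introns. Along the 3′UTR, the significant peaks of these genes had a median position of 29.1% of its length from the stop codon in replicate 1 and 52.1% in replicate 2, beside 42.9% and 43.5% over all genes. Counted once per peak, the 3′UTRs that held the peaks of these genes were shorter, with a median of 1082 and 1301 bases beside 1927 and 1998. These medians equal the 3′UTR lengths of Hnrnpul1 and Hnrnpk, which each held several peaks, and lengths per gene were not compared.

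Short sequences were searched on the strand of the peak in the 100 bases around the centre of the replicate 1 peak of each shared site, with overlapping matches allowed. CACA was present in 7 of the 9 windows in 3′UTRs, beside 36.9% of the 2457 such windows of all protein-coding genes. CATT was present in 6, beside 43.2%, GGAC, the core of the m6A consensus, in 3, beside 23.6%, GAACA in 1, beside 7.49%, and AAACC in 0, beside 8.83%. Of the 2 windows in CDS, 1 held GGAC, beside 28.6% of 1096, and neither held the other letters. The 9 windows came from 5 genes, and 2 of the windows in Hnrnpul1 overlap at their ends, so these are counts over few and related sequences.

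The 30 bases around the centre of the replicate 1 peak are shown for the shared site with the largest smaller value in each of the 7 genes. In Hnrnpl, Hnrnpk and Snrpb, these bases lie outside the replicate 2 peak whose value is given for the site. They come from the GRCm38 genome, 5′ to 3′ on the strand of the gene, with any of the 5 searched motifs in capitals. The positions are chr7:25721541-25721570 (minus strand, Hnrnpul1), chr7:28822108-28822137 (plus, Hnrnpl), chr13:58391328-58391357 (minus, Hnrnpk), chr10:63015680-63015709 (minus, Hnrnph3), chr10:80804642-80804671 (plus, Sf3a2), chr2:130171886-130171915 (minus, Snrpb) and chr7:66074441-66074470 (plus, Snrpa1).
Hnrnpul1: gtaactttgCACACAagcgtctgttcagtt
Hnrnpl: gggggaggggaactggtatctcccaagatt
Hnrnpk: gaaatgtttgtgaacgattcgaaaaaaatg
Hnrnph3: ggtggtggaggcagtggaggttactatggg
Sf3a2: accctcagccgcctcctggagtccaccctg
Snrpb: gtcagtagctcagaggcgatgtGGACcctg
Snrpa1: aacaaccttgcttgtatcagcaacgtGGAC
The window of Hnrnpul1 holds CACA, those of Snrpb and Snrpa1 hold GGAC, and the other 4 hold none of the letters in these 30 bases.

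Genes that act beside these factors in splicing were counted in the same way. Of 104 such genes, 99 had clusters in both replicates. Of these, 56 had a significant peak in replicate 1, 72 in replicate 2 and 48 in both, beside 40.8% and 62.8% of all genes with a cluster in the replicate and 39.1% of those with clusters in both, and 15 had a shared site (15.2%, beside 16.6% of all genes). They held 25 shared sites. Qk, which encodes the STAR domain protein quaking, had the most, 4, with 14 significant peaks in replicate 1 and 20 in replicate 2. Matr3, for the nuclear matrix protein matrin, and Luc7l, for a protein associated with the U1 snRNP, had 3 each, and Ptbp1, Elavl1 and Tra2b had 1 each.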

How the data were processed

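Per the submitters' processing notes and the study's methods, the authors used cutadapt for trimming, Bowtie2 against ribosomal RNA, STAR on mm10 and molecular identifiers against PCR duplicates, and Clipper found the clusters of each replicate separately. How reads with several alignments were treated is not given in the sources used here, which bears on Hnrnpa1, Snrpe and other genes with pseudogenes. As −log10 values, the deposited tables give P for IP against SMInput reads (chi-square with Yates' correction, or Fisher's exact test), set to 0 without enrichment and to 400 at most. The deposited log2 column holds the fold change after scaling by library.

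Read numbers and totals were recovered as the whole numbers that return both listed values, with a single solution for 99.9% and 99.7% of clusters between 0 and 400. Clusters listed at 0 have no recovered reads, so the SMInput maxima and the medians of reads leave them out, and a single SMInput read may stand for 0. Regions were taken at the peak centre from basic GENCODE M21 transcripts in the order 3′UTR, CDS, 5′UTR, non-coding exon, intron. Significant peaks that shared a base with one of the other replicate were joined as a shared site where they overlapped or touched, and adjoining peaks without such a base were left out. The value of a site is that of its most significant peak in each replicate. Percentages over regions count a peak in overlapping genes for each of them. Shares have Wilson intervals and fold changes exact Clopper-Pearson intervals (95%). Neither clusters nor genes are replicates, and the one test over the 4 samples, a paired fit, is given with the alternatives.

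Named genes were up to 4 per family with the largest smaller log2(fold change) at a shared site, the 5 with the most shared sites, the 5 without a peak and with the most SMInput reads, and the 5 with the most clusters, with a tie for the last place. Other genes were named after their values were seen. The members and lists were chosen with earlier results of these data known. Alternatives covered thresholds, adjusted P values, a minimum of reads, gene assignment, overlap, regions, single replicates and the paired fit. Python 3.11.15, pandas 2.3.3, scipy 1.17.1, limma 3.58.1 in R 4.3.3, pysam 0.24.0 and samtools 1.23.1 were used, and read recovery, overlaps, joining and P value adjustment were tested on simulated data.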

Additional observations from a re-analysis of the deposited data

How the results depend on the processing

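With both thresholds at 3, there were 10 peaks in replicate 1 and 9 in replicate 2, 2 genes with a peak in both, 0 genes with a shared site and 0 shared sites, and the 3′UTR share was 70.0% in replicate 1. At a looser log2(fold change) limit of 1, there were 138 and 168 peaks, 35 genes with a peak in both, 20 with a shared site and 41 shared sites. Shares over all clusters and genes were not counted at either setting, nor with the adjusted P values, read minimum, transcripts or overlaps below. The counts and shares at all of these settings thus have no background beside them. With an adjusted P value of at most 0.05, the 3′UTR share of replicate 1 was 50%, as it was with regions from all transcripts. At least 10 IP reads left 35 peaks in replicate 2, 15 genes with a peak in both and a 3′UTR share of 74.3% in replicate 2. Assignment by exon overlap, which by its rule leaves out clusters wholly within introns, kept 46 peaks in replicate 2 and gave a 3′UTR share of 76.1% there. With a single replicate, 29 to 33 genes had a peak, in place of 7 with a shared site and 23 with a peak in both. The widest peak of the Hnrnpl site had 2.22 in replicate 2. The cause of these shifts was not tested. The shared sites and their genes numbered 11 and 7 also with an overlap of 50% of the shorter peak and with exon overlap, and 10 and 6 with adjusted P values or at least 10 IP reads. A paired fit, with a replicate block, was added after the data were seen. It tested the log2(fold change) values of overlapping clusters, 1 per replicate, against 0 with limma, whose pooled spread supplements the single residual degree of freedom, and kept the fold threshold in each replicate. It gave 14 shared sites in 8 genes, among them all 11 of the main analysis, and thus changed neither count by over 1.5 times. The fit called 22 of 735 overlapping pairs of clusters in the splicing factor and hnRNP genes (2.99%), beside 10.3% of 93525 pairs over all clusters. Whether libraries of the same number deviate together was not checked, because the reads of a cluster are those of its own replicate only. Intron peaks had a median of 10 and 7 IP reads, and the clusters of Srsf12 reached at most 2 SMInput reads, so values there are imprecise.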

Other observations

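Some clusters of these genes had enrichment in a single replicate although both replicates had reads at the same place. They were picked after their values were seen and are given as values. Snrpf, which encodes an Sm core protein, had a 3′UTR peak in replicate 2 with a log2(fold change) of 2.52 and a −log10(P value) of 9.22 (27 IP and 17 SMInput reads), where the cluster of replicate 1 with the largest overlap had -0.41. Hnrnpk had CDS peaks in replicate 1 of 2.20 (27 and 10 reads) and 2.14 (26 and 10 reads), where the clusters of replicate 2 had -0.37 and -0.34. Whether these differences exceed the variation between replicates was not tested.

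Hnrnpa0, which encodes an hnRNP of the A and B group, had 2 peaks in its 3′UTR in replicate 1, of 2.21 (41 and 15 reads) and 2.72 (31 and 8 reads), and 1 in replicate 2 of 2.54 (21 and 13 reads) that lay elsewhere in the same 3′UTR. The first of them overlapped a cluster of replicate 2 with 1.78 on 43 IP and 45 SMInput reads. It thus counted among the genes with a peak in both replicates but not among those with a shared site.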
